A study of Rattus norvegicus with 18 samples.

Results

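Slc17a5, the gene of the lysosomal sialic acid exporter sialin, was followed here together with 7 genes of sialic acid metabolism in a rat hindlimb muscle of mainly fast fibres, the extensor digitorum longus. The 8 genes are Slc17a5, the sialidases Neu1 and Neu2, the sialidase partner Ctsa, the synthesis enzymes Gne, Nans and Cmas, and the degrading enzyme Npl. Slc17a5 was chosen by its fall with the diet of the grandfather, measured on these same arrays, and the other 7 were added as its pathway. A gene counted as measured when a probe set carried its symbol alone, and 7 of the 8 were measured, among 12642 genes tested in all. Ctsa has no value of its own, because both of its 2 probe sets are shared with Pltp.

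The samples were 18 adult F2 Sprague-Dawley females, 1 array each, hybridized with 200 ng of total RNA. Their grandfathers, the F0 founders, ate chow in one lineage and a high-fat diet in the other. For 12 weeks the females themselves received either chow or a diet with 42/45% of its energy from fat. The groups are named here by the diet of the grandfather, then that of the female: 5 females were chow/chow, 5 were chow/high-fat, 4 were high-fat/chow and 4 were high-fat/high-fat. The labels give neither the age of the females nor the number of founders behind each lineage, so every p-value counts the females as independent although females of a lineage may be relatives. The number of arrays limits the precision.

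Sialic acids are acidic sugars that cap the glycans of glycoproteins and glycolipids. They are made in the cytosol from a UDP-linked amino sugar by Gne and then Nans, activated by Cmas and transferred in the Golgi by sialyltransferases. Sialidases cut them off again: Neu1 works in the lysosome in a complex with Ctsa and the beta-galactosidase Glb1, Neu2 in the cytosol. Sialin then carries the freed sugar out of the lysosome together with protons, and Npl can cleave it in the cytosol. Loss of sialin causes the sialic acid storage disorders in humans, and inherited defects of GNE cause a myopathy.

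The promoters of the members were read from RefSeq (build GRCr8), where all 8 were found, and the 250 bases before each annotated start were searched on both strands for 5 short motifs chosen after the sequences were seen. Windows of 3 members are shown because their levels carry the results that follow. The first covers bases 250 to 71 before the start of Slc17a5 (chr8:88309735-88309914, minus strand), the next the 250 bases before Neu1 (chr20:3906384-3906633, minus strand) and the last bases 40 to 11 before Neu2 (chr9:95711948-95711977, plus strand). Capitals mark motif matches.
Slc17a5: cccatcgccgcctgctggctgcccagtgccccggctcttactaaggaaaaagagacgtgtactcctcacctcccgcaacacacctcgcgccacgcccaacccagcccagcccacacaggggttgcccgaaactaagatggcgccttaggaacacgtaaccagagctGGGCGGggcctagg
Neu1: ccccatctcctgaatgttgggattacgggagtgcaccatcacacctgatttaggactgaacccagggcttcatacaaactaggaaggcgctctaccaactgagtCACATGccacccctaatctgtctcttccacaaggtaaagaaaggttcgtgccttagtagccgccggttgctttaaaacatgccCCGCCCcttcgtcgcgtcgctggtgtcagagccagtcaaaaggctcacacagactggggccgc
Neu2: ctggagtTATAAAaaggctccCACGTGtca
The capitals in Slc17a5 are GGGCGG, the GC box, 84 bases before the start. This motif stood in 5 of the 8 members (Slc17a5, Neu1, Ctsa, Gne and Cmas) and in 30.5% of 33469 promoters. In Neu1 the capitals are an E-box of the form CATGTG, read on the other strand, 146 bases before the start, and the GC box on the other strand at 63 bases. CATGTG stood in Neu1 and Npl and in 12.1% of all promoters. Neu2 alone among the members held TATAAA, the core of a TATA box, 33 bases before its start, against 12.9% of all promoters. It was also the only member with CACGTG, the palindromic E-box, 19 bases before its start, against 5.59% of all promoters. The E-box CAGCTG, a form bound by myogenic factors, stood in Neu2 and Cmas, 94 and 86 bases before the start, and in 12% of all promoters. A match describes these letters and is no binding site.

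Levels below are log2 of the array intensity plus 16, after quantile normalization, and differences are high-fat minus chow on that log2 scale. Levels of different genes are not compared, since each probe set has its own brightness. In chow/chow females Slc17a5 stood at 8.18, 8.05, 8.02, 7.92 and 8.06. In chow/high-fat females it stood at 8.03, 7.94, 7.93, 7.53 and 7.66. The high-fat/chow females had 7.62, 7.16, 7.31 and 7.35. All 4 of them lay below all 5 chow/chow females, and 3 of the 4 lay below every other animal of the study. The high-fat/high-fat females had 7.57, 7.80, 7.70 and 7.95, inside the span of the chow/high-fat females. As deposited, before the quantile normalization made here, the intensities were 240.71 to 272.56 in chow/chow and 147.72 to 229.80 in chow/high-fat. They were 190.40 to 251.76 in high-fat/high-fat and 116.50 to 159.31 in high-fat/chow.

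**Figure D1:**
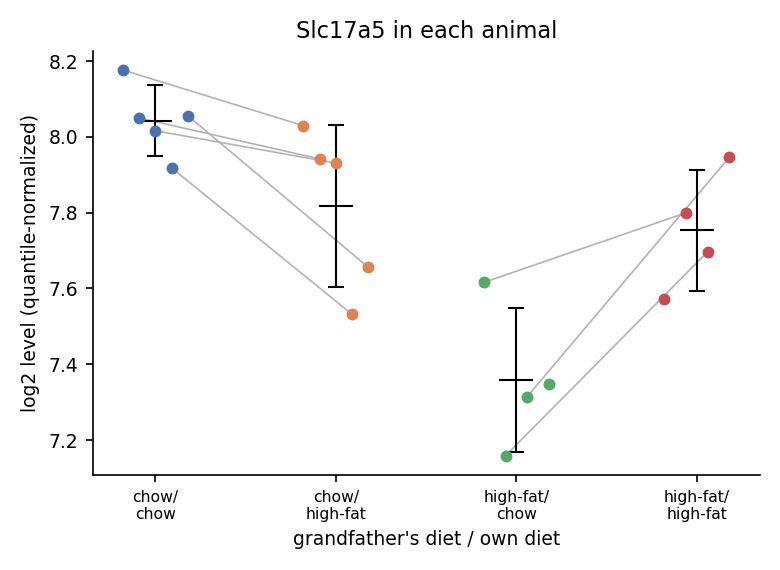
Log2 level of Slc17a5 (y axis, quantile-normalized) in each of the 18 females, by group (x axis: diet of the grandfather / own diet); horizontal ticks are group means and error bars are 1 SD (n = 5, 5, 4 and 4), and grey lines join a chow-fed and a high-fat-fed female of the same lineage whose animal numbers are 3 or fewer apart. The high-fat/chow group is lowest, at 7.16 to 7.62, and the grey lines fall in the chow lineage and climb in the high-fat lineage.

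Ordered by their means, the groups ran chow/chow (8.04 ± 0.093, SD, n = 5), chow/high-fat (7.82 ± 0.21, SD, n = 5), high-fat/high-fat (7.75 ± 0.16, SD, n = 4) and high-fat/chow (7.36 ± 0.19, SD, n = 4). Each neighbour in this order overlapped the next in its range. The values of Slc17a5 against the diet of the grandfather chose the gene, so they are given without a test. Among chow-fed females the high-fat lineage was lower by 0.68 log2 (SE 0.107, 95% confidence interval -0.91 to -0.46), which is 1.61-fold. Every high-fat/chow female was below every chow/chow female, as was so for 221 of the 12642 genes (1.75%). Among high-fat-fed females the difference was -0.064 (SE 0.107, 95% confidence interval -0.29 to 0.16), and the groups overlapped. Averaged over both own diets it was -0.37 (SE 0.076).

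These sizes can be placed among the other genes. The fall in chow-fed females was the 14th largest of 12642 genes, the averaged one the 22nd largest, and the difference in high-fat-fed females stood at rank 3797. For chow-fed females limma (Benjamini-Hochberg adjustment over all genes, threshold 0.05) called 1 gene, 0.00791% of those tested, and that gene was Slc17a5. For the average over own diets it called 25 genes, 0.198%, of which 20 were higher and 5 lower in the high-fat lineage. By size of difference Slc17a5 stood 7th among these 25. No weight rests on these calls, since they are how the gene was found. They were also not stable: over 15 other settings of the processing, 0 genes were called in 6 settings for chow-fed females and in 7 for the average, among them the title number as a block in both.

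The own diet of the female went with Slc17a5 in opposite directions in the lineages. In the chow lineage high-fat-fed females were lower by 0.23 (SE 0.10, 95% confidence interval -0.44 to -0.014), and in the high-fat lineage they were higher by 0.39 (SE 0.113, 95% confidence interval 0.16 to 0.63). The difference between these responses, the interaction, was 0.62 (SE 0.15). These 3 values share their groups with the fall that chose the gene, so they too are a description. For the own diet averaged over lineages, which weighs both lineages equally, the difference was 0.084 (SE 0.076, 95% confidence interval -0.074 to 0.24, limma adjusted p = 0.888), and it did not pass.

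Sample titles carry an animal number, and within a lineage 8 chow-fed females have a high-fat-fed female 3 or fewer numbers away. The labels do not say what neighbouring numbers share. Slc17a5 was lower in the high-fat-fed female of 5 of 5 such pairs of the chow lineage, by 0.085 to 0.40. In the high-fat lineage she had the higher level in 3 of 3 pairs, by 0.18 to 0.63. These pairs hold the same animals as the fall that chose the gene, so the counts are a description and no separate result. No share over all genes was computed for them.

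Some arrays stood apart in brightness, and in both high-fat-fed groups those arrays had extreme Slc17a5 levels. The median deposited intensity of an array was 66.29 to 70.52 in chow/chow, 55.02 to 66.45 in chow/high-fat, 60.21 to 70.66 in high-fat/chow and 67.52 to 73.97 in high-fat/high-fat. The lowest medians of all belonged to chow/high-fat replicates 4 and 5, which also had the lowest Slc17a5 levels of their group, 7.53 and 7.66. The brightest arrays, at 73.78 and 73.97, belonged to high-fat/high-fat replicates 2 and 4, which had the highest levels of theirs, 7.80 and 7.95. The remaining arrays did not follow brightness. Chow/high-fat replicate 1, at 62.66, had 8.03 and the brighter replicate 3, at 66.45, had 7.93. High-fat/high-fat replicate 3, at 67.52, had 7.70 and the brighter replicate 1, at 68.37, had 7.57. Without the 2 arrays of lowest median, chow/high-fat replicates 4 and 5, the own-diet difference in the chow lineage was -0.076 (SE 0.099) in place of -0.23. The grandpaternal difference in high-fat-fed females was then -0.21 (SE 0.103) in place of -0.064. The grandpaternal difference in chow-fed females was -0.69 (SE 0.091) and the own-diet difference in the high-fat lineage 0.40 (SE 0.095). Neither of these compares the chow/high-fat group, so leaving out those 2 arrays could hardly move them and says nothing about brightness there.

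Titles also end in a letter and number of the kind used for the wells of a plate, with the numbers 5, 7 and 9, which the labels do not explain. Among chow-fed females the grandpaternal difference of Slc17a5 was -0.81 within number 5 (3 against 2 females), -0.40 within number 7 and -0.71 within number 9 (1 against 1 in each). In high-fat-fed females it was -0.083 within number 5 and 0.10 within number 7. With the number as a block in the fit, the chow-fed value was -0.69 (SE 0.104), and 0 of all genes were called there.

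The lysosomal sialidase Neu1 did not pass in any of the 7 comparisons. Like Slc17a5 it had its lowest mean in high-fat/chow, but its highest was in high-fat/high-fat. Its level was 9.01, 8.95, 8.97, 8.99 and 9.31 in chow/chow females and 9.09, 9.23, 8.85, 8.69 and 8.79 in chow/high-fat females. It was 8.70, 8.79, 8.86 and 9.14 in high-fat/chow females and 8.87, 9.01, 9.51 and 9.59 in high-fat/high-fat females. The 2 brightest Neu1 values of the study were thus both high-fat/high-fat, but the other 2 of that group lay inside the range of the rest. Group means were 9.04 ± 0.15, 8.93 ± 0.22 (SD, n = 5 each), 8.87 ± 0.19 and 9.24 ± 0.36 (SD, n = 4 each) in the same order.

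In the high-fat lineage Neu1 differed by 0.37 with the own diet (SE 0.15, 95% confidence interval 0.057 to 0.69, limma adjusted p = 0.475), and the high-fat-fed female was higher in 3 of 3 neighbouring pairs, by 0.31 to 0.73. In the chow lineage the difference was -0.11 (SE 0.13, limma unadjusted p = 0.410). The interaction was 0.49 (SE 0.20, limma adjusted p = 0.687), the same sign as in Slc17a5. Against the diet of the grandfather Neu1 differed by 0.31 in high-fat-fed females (SE 0.14, limma adjusted p = 0.349) and by -0.17 in chow-fed females (SE 0.14, limma adjusted p = 0.752). None of these passed. Neu1 in high-fat-fed females was 0.19 (SE 0.16) without the 2 dimmest arrays, 0.10 (SE 0.18) with the array median as a covariate and 0.20 without high-fat/high-fat replicate 4. By title number it was 0.62 within number 5 and 0.63 within number 7. The own-diet difference in the high-fat lineage was 0.68 and 0.89 within numbers 5 and 7, and -0.20 within number 9.

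Neu2, the cytosolic sialidase known for its expression in skeletal muscle, was the member that varied most between animals, and it did so inside every group. Chow/chow females had 6.24, 8.13, 8.57, 6.73 and 7.72, and chow/high-fat females 7.51, 7.69, 8.52, 6.90 and 8.32. High-fat/chow females had 7.11, 8.46, 7.07 and 7.30, and high-fat/high-fat females 7.18, 6.73, 8.34 and 7.43. The deposited intensity ran from 60.27 to 362.02, a 6.01-fold span, and high and low animals occurred at both own diets and in both lineages. The spread within groups, as residual SD of the fit, was 0.76 log2, 5.59 times that of the median gene (0.14), and 18 genes of 12642 (0.142%) had a larger one. Differences between groups were small beside it: -0.18 for the diet of the grandfather averaged over own diets (SE 0.31, 95% confidence interval -0.83 to 0.47, limma adjusted p = 0.83) and 0.12 for the own diet averaged over lineages (SE 0.31, 95% confidence interval -0.53 to 0.77, limma adjusted p = 0.97).

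By the median, females of neighbouring animal numbers were closer in Neu2 level than other females of their lineage. After group means were removed, the median absolute difference was 0.33 log2 over the 8 neighbouring pairs and 0.93 over the 33 other combinations of a chow-fed and a high-fat-fed female of the same lineage. Not every pair was close: on this scale the pair at 6.24 and 7.51 was farthest apart, by 0.95, followed by the pair at 8.13 and 7.69. Neighbours were also closer for Nans (0.093 and 0.15), Npl (0.103 and 0.14), Slc17a5 (0.15 and 0.17) and Gne (0.086 and 0.10), by smaller amounts. For Cmas the medians were 0.081 and 0.082, and for Neu1 neighbours were farther apart, at 0.27 and 0.22. Both sets of combinations draw on the same 18 animals and no test was made.

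**Figure D2:**
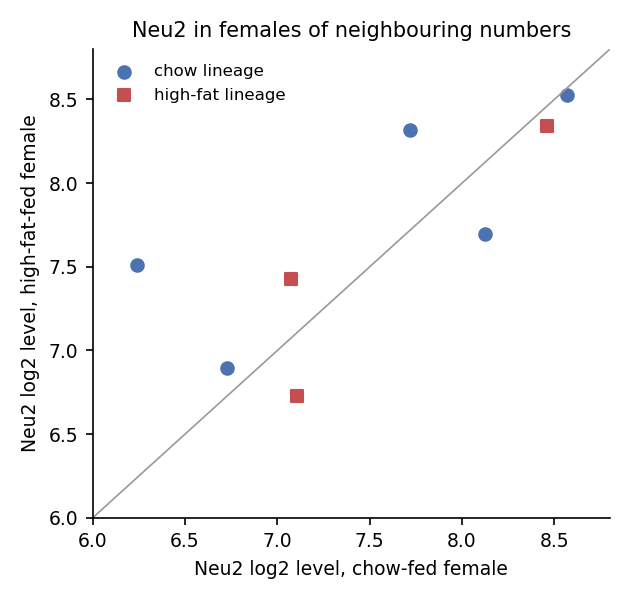
Log2 level of Neu2 in the high-fat-fed female (y axis) against the chow-fed female (x axis) of each of the 8 pairs with neighbouring animal numbers, by lineage; the line marks equal levels. Apart from the pair at 6.24 and 7.51, the females of a pair lie within 0.60 log2 of each other, while the pairs span most of the range of 6.24 to 8.57.

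The genes most like Neu2 across the 18 females, chosen after the values were seen, were Stpg3 (Pearson r = 0.78), the growth factor gene Nrg2 (0.78), the diacylglycerol kinase Dgkd (0.77), Tmem131l (0.73) and Arhgap45 (0.72). The animals share group and array brightness, so these are descriptions. Nrg2 was dim, at 5.06 to 5.52, near the level of 5.28 below which genes were dropped. In the RefSeq order of protein-coding genes (assembly GRCr8) Dgkd is the 4th gene on one side of Neu2, and Usp40, the 5th on that side, had r = 0.58. Of the 10 protein-coding genes nearest to Neu2, 8 were tested, and the 3 between Neu2 and Dgkd included Inpp5d (r = -0.27) and Atg16l1 (r = -0.33).

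Next come the synthesis enzymes. Gne, whose bifunctional enzyme sets the pace of sialic acid synthesis, stood at 7.93 ± 0.073 in chow/chow, 7.90 ± 0.098 in chow/high-fat (SD, n = 5 each), 7.95 ± 0.057 in high-fat/chow and 8.03 ± 0.20 in high-fat/high-fat (SD, n = 4 each), and its groups overlapped throughout. In chow-fed females the diet of the grandfather went with a difference of 0.023 (SE 0.081, 95% confidence interval -0.14 to 0.19, limma adjusted p = 0.959). In the high-fat lineage the high-fat-fed female had the higher Gne level in 3 of 3 neighbouring pairs, by 0.13 to 0.26, but high-fat/high-fat replicate 1, which has no such neighbour, had the lowest level of all 18, 7.74. Over the whole lineage the own-diet difference was 0.086 (SE 0.085, limma adjusted p = 0.816).

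Nans, the synthase that builds the sialic acid backbone, went opposite to Slc17a5 with the diet of the grandfather. Averaged over own diets it had the smallest p of the measured members other than Slc17a5. It stood at 7.61, 7.91, 7.81, 7.80 and 7.69 in chow/chow females and at 7.43, 8.01, 7.73, 7.86 and 7.99 in chow/high-fat females. It stood at 7.98, 7.91, 8.03 and 8.12 in high-fat/chow and at 7.91, 8.12, 7.81 and 8.05 in high-fat/high-fat females. Of the high-fat/chow females 3 exceeded the highest chow/chow female, and the other, replicate 2, was level with her to the second decimal. Averaged over own diets Nans was 0.21 higher in the high-fat lineage (SE 0.073, 95% confidence interval 0.055 to 0.36, unadjusted p = 0.0103, limma adjusted p = 0.189), and in chow-fed females 0.24 higher (SE 0.103, limma adjusted p = 0.535). Neither passed over all genes. By title number the chow-fed value was 0.19, 0.16 and 0.43 within numbers 5, 7 and 9. The own diet left 0.0026 (SE 0.073, 95% confidence interval -0.15 to 0.15, limma adjusted p = 0.998).

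Cmas, which activates sialic acid to its CMP form in the nucleus, was the steadiest member. Its group means ran from 8.38 ± 0.081 in chow/high-fat (SD, n = 5) to 8.44 ± 0.046 in high-fat/high-fat (SD, n = 4), and 9.58% of all genes had a smaller residual SD than its 0.087. Its difference with the diet of the grandfather, averaged over own diets, was 0.019 (95% confidence interval -0.080 to 0.12), and with the own diet -0.013 (95% confidence interval -0.11 to 0.087). Npl, the lyase that breaks free sialic acid down, was at 7.10 ± 0.14 and 7.05 ± 0.14 in the chow lineage (SD, n = 5 each) and 7.23 ± 0.11 and 7.22 ± 0.18 in the high-fat lineage (SD, n = 4 each). It ranged from 6.86 to 7.21 in the chow lineage and, in the high-fat one, from 7.09 to 7.495. Averaged over own diets it differed by 0.15 with the diet of the grandfather (SE 0.067, 95% confidence interval 0.0092 to 0.29, unadjusted p = 0.0380, limma adjusted p = 0.306), which did not pass.

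**Figure D3:**
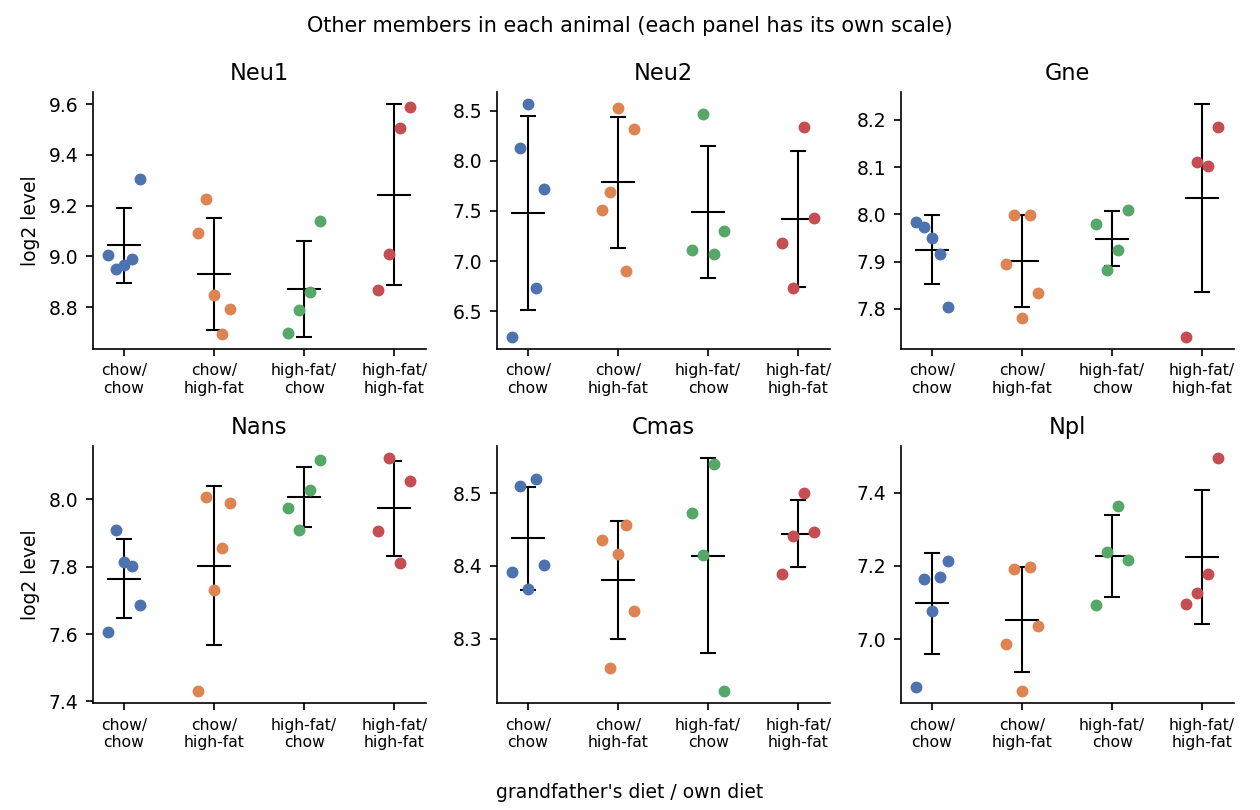
Log2 level (y axis, a separate scale in each panel) of the other 6 measured members in each of the 18 females, by group (x axis: diet of the grandfather / own diet); horizontal ticks are group means and error bars 1 SD (n = 5, 5, 4 and 4). Neu2 spans 6.24 to 8.57 and overlaps in all groups, the highest Neu1 animals are high-fat/high-fat, and Nans is higher on average in the high-fat lineage, at 8.01 and 7.97 against 7.76 and 7.80.

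Counted together, 0 of the 6 measured members other than Slc17a5 passed in any of the 7 comparisons with limma, the one tool run. For the diet of the grandfather averaged over own diets, 2 of 6 (Nans and Npl) had an unadjusted p under 0.05, against 14.6% of all genes. In chow-fed females it was 1 of 6 (Nans), against 8.75% of all genes, and in high-fat-fed females 1 of 6 (Neu1), against 13.3%, where limma called 0% of genes. For the own diet averaged over lineages it was 0 of 7, against 6.73% of all genes, where limma called 2 genes, 0.0158%. In the chow lineage it was 0 of 6, against 4.80%, and in the high-fat lineage 1 of 6 (Neu1), against 9.25%. For the interaction it was 1 of 6 (Neu1), against 6.83% of all genes. In these last 3 comparisons limma called 0% of genes. With 6 genes, shares like these do not set the members apart from the other genes. Nor did the animals of 2 groups separate fully for any of these 6 members. Over all genes, high-fat animals were all lower in 1.75% and all higher in 1.53% for the diet of the grandfather in chow-fed females, and in 2.34% and 2.37% in high-fat-fed females. For the own diet the shares were 0.340% and 0.419% in the chow lineage and 2.06% and 2.06% in the high-fat lineage.

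**Figure D4:**
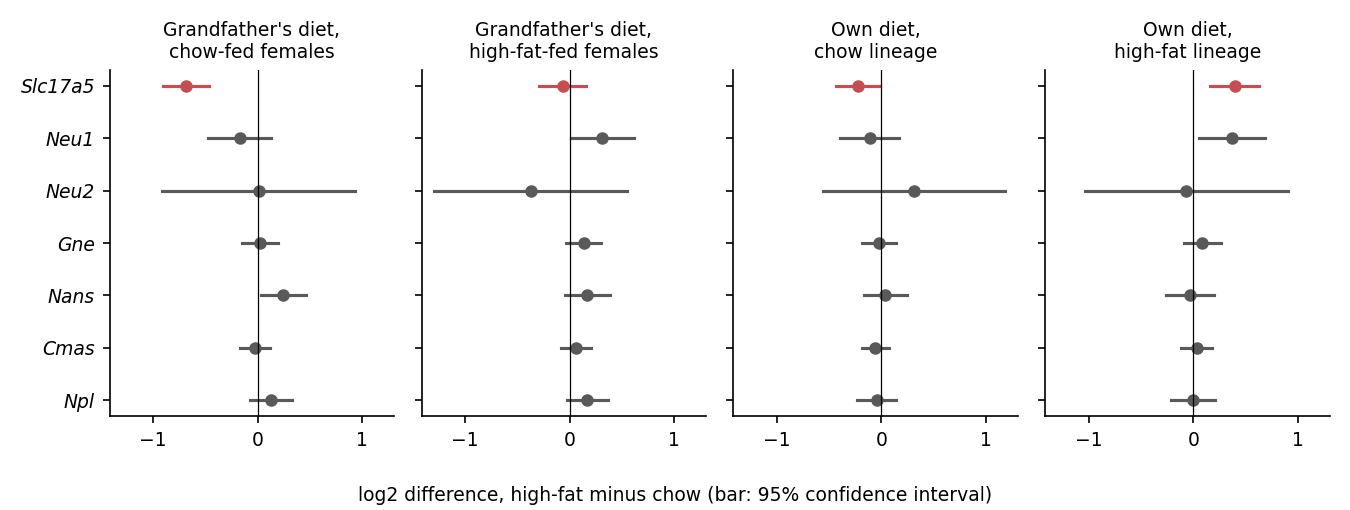
Log2 difference, high-fat minus chow (x axis), of the 7 measured members (rows) in the 4 comparisons between single groups (panels); points are estimates, bars 95% confidence intervals, and Slc17a5, given without a test, is red. Slc17a5 lies at -0.68, -0.064, -0.23 and 0.39 from left to right, and the intervals of Neu2 are several times as wide as those of the other members.

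Around the members, 7 lists of related genes were followed, chosen with earlier results of these data known, and 0 of their genes passed in any comparison with limma. Of the genes for sialic acid supply and activation, 11 were tested. With the diet of the grandfather averaged over own diets, 8 were higher and 3 lower in the high-fat lineage (median 0.087, against -0.0027 for all genes). Of the 11, 1, Renbp, had an unadjusted p under 0.05, against 14.6% of all genes. Renbp, an epimerase of amino sugars, differed by 0.13 (SE 0.060, limma adjusted p = 0.309), and Uap1, which makes the UDP-linked precursor, by 0.14 (SE 0.070, limma adjusted p = 0.362). With the own diet averaged over lineages 2 were higher and 9 lower (median -0.034), led by Uap1 at -0.24 (SE 0.070, unadjusted p = 0.00297, limma adjusted p = 0.404). Amdhd2, a deacetylase of amino sugar phosphates, differed there by 0.073 (SE 0.053).

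Of 20 sialyltransferase genes 13 were tested, and 10 were higher and 3 lower in the high-fat lineage (median 0.052). St8sia4, a polysialyltransferase, differed by 0.19 (SE 0.072, limma adjusted p = 0.225) and St3gal2 by -0.20 (SE 0.096, limma adjusted p = 0.353). With the own diet 7 were higher and 6 lower (median 0.0057), with St3gal4 at -0.14 (SE 0.091) and St8sia6 at -0.066 (SE 0.060). Of the other sialidases and esterases 3 were tested, 1 higher and 2 lower with the diet of the grandfather: the membrane sialidase Neu3 differed by -0.078 (SE 0.068), the esterase Siae by -0.091 (SE 0.088), and 1 was higher and 2 lower with the own diet, Neu3 by -0.097 (SE 0.068) and Neu4 by 0.057 (SE 0.065). The other measured carriers of the SLC17 family were the vesicular nucleotide carrier Slc17a9, at -0.067 (SE 0.083) with the diet of the grandfather, and the vesicular glutamate carrier Slc17a7, at 0.0032 (SE 0.042).

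Sialin is one protein of the lysosome, so other lysosomal genes are set beside it. Of 24 lysosomal hydrolase genes tested, 16 were higher and 8 lower in chow-fed females of the high-fat lineage (median 0.023), and averaged over own diets 12 were higher and 12 lower (median 0.0044). Glb1, the beta-galactosidase of the Neu1 complex, differed by 0.20 (SE 0.074, limma adjusted p = 0.209) and the fucosidase Fuca1 by 0.14 (SE 0.056, limma adjusted p = 0.265). With the own diet 5 were higher and 19 lower (median -0.062), with the sulfatase Arsb at -0.21 (SE 0.087, limma adjusted p = 0.718). There 1 of the 24 had an unadjusted p under 0.05, against 6.73% of all genes. Of 24 lysosomal membrane proteins and carriers, 11 were higher and 13 lower with the diet of the grandfather (median -0.032). Among these, 3 and 4 had an unadjusted p under 0.05, against 14.6% of all genes. The largest of these were the membrane protein Tmem192, at 0.22 (SE 0.052, limma adjusted p = 0.0792), and the membrane carrier Mfsd8, at -0.26 (SE 0.068, limma adjusted p = 0.0949), and neither passed. With the own diet 8 were higher and 16 lower (median -0.019), with the peptide carrier Slc15a3 at -0.18 (SE 0.079).

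Lectins that bind sialic acid gave 5 tested genes, 2 higher and 3 lower with the diet of the grandfather (median -0.015). Siglec1, carried by macrophages, differed by -0.061 (SE 0.060) and Siglec10 by 0.085 (SE 0.102). With the own diet Siglec10 differed by 0.17 (SE 0.102, limma adjusted p = 0.814) and Mag, a myelin lectin, by 0.067 (SE 0.055).

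**Figure D5:**
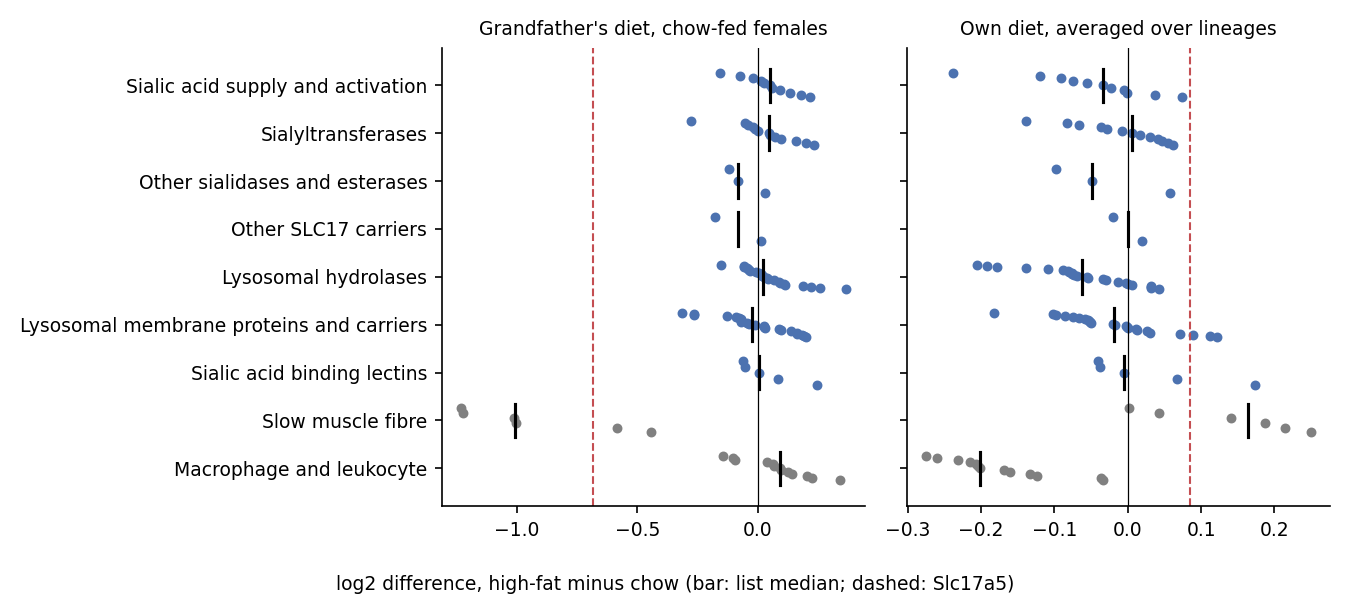
Log2 difference, high-fat minus chow (x axis), of each tested gene (point) of 7 pathway lists and 2 marker lists (rows), for the diet of the grandfather in chow-fed females (left) and the own diet averaged over lineages (right); black bars are list medians and the red dashed line is Slc17a5, at -0.68 and 0.084. All points of the pathway lists in the left panel lie to the right of Slc17a5, while slow-fibre genes lie around -1.01.

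A whole muscle holds several cell types, and fewer cells of a type and less RNA per cell cannot be told apart here. Markers of slow fibres shared the sign of Slc17a5 in the comparisons that follow. In chow-fed females 6 of 6 were lower in the high-fat lineage (median -1.01, against -0.0017 for all genes). Of these, 4 had an unadjusted p under 0.05, against 8.75% of all genes, and 0 passed limma's adjusted threshold. With the own diet, 6 of 6 were lower in the chow lineage (median -0.30). In the high-fat lineage 6 of 6 were higher (median 0.59), and Slc17a5 had the same signs. In the chow lineage 0 of 6 had an unadjusted p under 0.05, against 4.80% of all genes. In the high-fat lineage it was also 0 of 6, against 9.25%, so the own-diet values are a match of signs only. The summed slow-fibre intensity was 8077 to 15482 in chow/chow, 4635 to 16264 in chow/high-fat, 3927 to 12226 in high-fat/chow and 3458 to 13640 in high-fat/high-fat females, and no marker was at 0 in any animal. With this sum as a covariate Slc17a5 was -0.72 (SE 0.121) in chow-fed females, against -0.68 without it. Nans went there from 0.24 to 0.12 (SE 0.10) and Npl from 0.13 to 0.0022 (SE 0.086). Averaged over own diets, Npl went from 0.15 to 0.081 (SE 0.058) and Nans from 0.21 to 0.14 (SE 0.068). The mean sum itself differed between groups, at 11384 in chow/chow and 6732 in high-fat/chow. The part of fibre content in these differences was not tested.

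The fast-fibre genes that define this muscle were bright in every animal, with 6 of 10 markers measured and a sum of 38823 to 42429. Macrophage and leukocyte markers were lower with the own high-fat diet in 13 of 13 (median -0.20), beside the 19 of 24 lower lysosomal hydrolases. Of these markers 7 had an unadjusted p under 0.05, against 6.73% of all genes, and 0 passed the adjusted threshold. Of the 24 hydrolases 1 had an unadjusted p under 0.05. Their sum was 1294 to 1896 in chow/chow, 1300.3 to 1747 in chow/high-fat, 1622 to 1974 in high-fat/chow and 1443 to 1664 in high-fat/high-fat females, with no marker at 0, and their part in the hydrolase counts was not tested. With the diet of the grandfather in chow-fed females 10 of 13 were higher (median 0.095). Fibroblast markers were lower with the own high-fat diet in 6 of 6 (median -0.23) and tendon markers in 5 of 5 (median -0.22). The other lists, for fat cells (5 tested), endothelium (3), nerve and Schwann cells (4) and red blood cells (3), had medians between -0.084 and 0.18 for the diet of the grandfather in chow-fed females, with 0 genes called.

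Across the 18 females the genes most like Slc17a5 by Pearson correlation of log2 levels were Gprc6a, an amino acid sensing receptor (r = 0.87), Ankrd17, an ankyrin repeat protein (0.86), Cpo, a carboxypeptidase (0.85), Nfe2l1, a transcription factor of proteasome genes (0.80), and Mcur1, a regulator of mitochondrial calcium uptake (0.79). Part of this likeness is the difference between groups. With group means removed the values were 0.78, 0.66, 0.71, 0.50 and 0.58, and without the 2 animals farthest from the median, both high-fat/chow, they were 0.76, 0.82, 0.75, 0.67 and 0.84. All 5 were lowest in high-fat/chow, by -0.39, -0.20, -0.51, -0.24 and -0.24 against chow/chow. They were picked for likeness to a gene that was itself chosen for its fall, so this order is no separate result. Cpo was itself among the 25 genes called for the diet of the grandfather averaged over own diets, at -0.41 (SE 0.070). Gprc6a was dim, with group means from 5.16 in high-fat/chow to 5.55 in chow/chow. The level below which genes were dropped, by their mean over all arrays, was 5.28.

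Other members of the pathway ranked far lower by this measure. Of 12641 genes ranked by r, Neu1 stood at 1570 (r = 0.38), Gne at 5312 (0.072), Cmas at 5858 (0.033), Neu2 at 6982 (-0.043), Npl at 11139 (-0.38) and Nans at 12118 (-0.52). The animals share group, brightness and fibre content, and these values are descriptions.

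The neighbours of Slc17a5 in the genome were also read, in the RefSeq gene order of GRCr8. Of the 10 protein-coding genes nearest to it, 5 on each side, 4 were tested, and 0 of them were lower in high-fat/chow than in chow/chow females. They were Mto1, a mitochondrial tRNA modifier (0.13, SE 0.14), Eef1a1, an elongation factor (0.12, SE 0.079), the collagen gene Col12a1 (0.13, SE 0.15) and Cox7a2, a subunit of the respiratory chain (0.21, SE 0.077). Of all genes 50.5% were lower in this comparison, and 4 genes are too few to set these neighbours apart.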

How the data were processed

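Total RNA of 18 muscles was hybridized to 18 Affymetrix whole-transcript arrays. The deposited table gives a linear intensity for each of 20917 probe sets, made with Affymetrix Expression Console and PLIER per the submitters' processing notes; versions, settings and any genome build are not given in the sources used here. Its array medians spanned 0.43 log2. From the deposited intensities, log2(intensity + 16) was computed and quantile-normalized, and fold changes at low levels are understated on this log2 scale. Of the probe sets, 18197 had 1 symbol, 960 several and 1760 none in the platform annotation. Kept were probe sets with 1 symbol, 1 per gene by highest mean, above the 25th percentile (5.28), which left 12642 genes. A group-means model over all 18 arrays was fitted with limma 3.58.1 (R 4.3.3; lmFit, eBayes; moderated tests, two-sided), with p-values adjusted by Benjamini-Hochberg within each of 7 comparisons, at 0.05. The fit was tested on simulated data.

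The members and lists were chosen with earlier results of these data known. Named from a list were genes past the threshold or, failing that, the 2 of smallest p in each averaged comparison, and the 5 genes of highest r with Slc17a5. The 32 pairs of arrays within groups were checked for copies: the smallest SD of their log2 difference was 0.19. Replicate numbers follow the record order. Alternatives covered the scaling, the offset, the filter, the probe sets, the variance model, array weights, the groups in the fit, title numbers and neighbouring animals as blocks, and each array left out. Added after seeing the data were a filter percentile over all probe sets, leaving out the 2 arrays of lowest median, and the array median or the slow-fibre sum as a covariate.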

Additional observations from a re-analysis of the deposited data

Results flagged for a closer look

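Over 28 groups (7 measured members in 4 groups each), 2 had an animal whose gap to the nearest other was a large part of the range of its group, and chance alone gives about 1 in 20. In chow/chow, replicate 5 had a Neu1 level of 9.31, with a gap of 0.842 of the range. In high-fat/chow, replicate 2 had a Neu2 level of 8.46, with a gap of 0.837 of the range, and its neighbour in animal number, high-fat/high-fat replicate 3, was the highest of its own group at 8.34.

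Slc17a5 went down with the own high-fat diet in the chow lineage and up in the high-fat lineage, a difference between responses of 0.62 log2. This was not tested, because the gene was chosen from the same groups.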

How the results depend on the processing

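Of the other settings tried, the scaling mattered most. In the table as deposited 5 members passed for the diet of the grandfather in high-fat-fed females, where 0 did after quantile normalization: Neu1 at 0.55 (limma adjusted p = 0.0353), Gne at 0.38 (0.0326), Nans at 0.41 (0.0415), Cmas at 0.31 (0.0449) and Npl at 0.38 (0.0403). There the median of all genes was itself shifted by 0.18 and 1689 of 12642 genes were called, so against that median these members differed by less. Slc17a5 in the same comparison was 0.17 as deposited and -0.25 with the array median as a covariate, against -0.064, so its sign is not settled there. Its interaction was 0.90 as deposited, where the median gene shifted by 0.24, and 0.39 with that covariate. In the other 6 comparisons, as in this one with every other setting, 0 of the 6 measured members other than Slc17a5 passed.

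Slc17a5 in chow-fed females ran from -0.77 to -0.62 with each array left out and from -0.74 to -0.55 over the other settings, and averaged over own diets from -0.42 to -0.34 and from -0.45 to -0.28. In high-fat-fed females it ran from -0.14 to -0.0035 with each array left out. The number of genes called for the diet of the grandfather averaged over own diets ran from 0 to 252 over the settings, so the place of Slc17a5 among the 25 depends on them, and in chow-fed females 0 genes were called in 6 of 15 settings. As deposited, the mean level moved by more than its SD for Gne in chow/high-fat (7.78) and for Cmas in chow/high-fat (8.26) and high-fat/high-fat (8.57), and the r of Ankrd17 with Slc17a5 was 0.82. Neu2 changed sign in chow-fed females under 9 of 34 settings.

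The titles carry no replicate numbers shared between groups, so no replicate block was fitted. Neighbouring animal numbers served as a random block instead (consensus correlation 0.13). With it 0 of the 6 members other than Slc17a5 passed in any comparison, and 0 genes, Slc17a5 included, passed for the diet of the grandfather averaged over own diets, against 25 without it.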
